A study of Danio rerio with 6 samples.

Results

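The genes described here are 38 transcripts of glycolysis and of the response to low oxygen, taken by symbol from a table of 32057 zebrafish (Danio rerio) genes. Of these, 28 encode glycolytic enzymes and 10 belong to the hypoxia response. Each symbol matched a single entry of the table, and 37 of the 38 passed the filter on low counts, leaving out the aldolase gene aldoca. They were chosen by symbol with the fold changes and calls of this same genotype comparison already known, so the counts of called genes below describe the lists and support nothing about them.

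The libraries came from poly-A RNA of single whole embryos at 30 hours post fertilisation (hpf). They were 3 embryos of the genotype labelled 3etv, triple mutants of the Pea3 group of ETS transcription factors by the series title, and 3 embryos labelled WT (wild type). The labels name neither the mutated genes nor the alleles, and give no clutch, parents or batch. Pea3 factors are known as transcriptional effectors of fibroblast growth factor signalling. The embryos are titled MUT301, MUT302 and MUT303 in 3etv and WLD301, WLD302 and WLD303 in WT, and values are given in that order.

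Glycolysis splits glucose into pyruvate and yields ATP without oxygen, and lactate dehydrogenase then turns pyruvate into lactate. Teleost fish often keep several copies of an enzyme gene, and in mammals the corresponding copies differ by tissue, with PGAM2 and ENO3 in muscle and ENO2 in neurons. When oxygen is plentiful, prolyl hydroxylases of the EGLN family mark the alpha subunits of hypoxia-inducible factors (HIF) for removal through the VHL protein. When oxygen is short the factors persist and, in mammals, raise the transcription of glycolytic enzymes, of the vessel growth factor VEGFA and of EGLN3 itself.

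Library depth ran from 17570505 to 19600706 counts in genes for 3etv and from 21516892 to 25512862 for WT, so every 3etv library was shallower than every WT library. A floor of 3 counts stood for 0.117 to 0.177 CPM, the level used throughout, which divides counts by library size after correction with TMM factors. As a check of the labels, the Pea3 gene etv5b was at 28.8, 28.1 and 31.5 CPM in 3etv embryos, against 74.5, 73.1 and 76.7 CPM in WT embryos. Of the other Pea3 genes, etv5a and etv4 were also called lower, etv4 not without embryo MUT302 (adjusted p = 0.0502), and etv1 was not called. Genes marking muscle, neurons, red blood cells, epidermis, lens, endothelium, hatching gland and yolk syncytial layer were all counted in every library. Of the marker entries, only a pair for the hatching gland gene ctslb were at 0 throughout. A running number in the sample descriptions separates the genotypes. If that number follows the order of processing, an effect of that order and one of genotype cannot be told apart.

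Of the 10 hypoxia-response genes, 7 were called higher in 3etv embryos, 1 was called lower and 2 were not called. Of the 27 enzymes tested, 6 were called higher, 2 lower and 19 were not called. Genes count as called where the quasi-likelihood test of edgeR, adjusted over 19889 genes, gave a p below 0.05. Of all genes tested 26.0% were called, 12.6% higher and 13.5% lower. The median log2 fold change (3etv over WT) was 0.93 for the hypoxia genes, -0.06 for the enzymes and -0.01 for all genes tested. CPM ranges of the genotypes did not overlap in 8 of the 10 hypoxia genes and in 11 of the 27 enzymes, against 42.9% of all genes tested. No test was made over either list.

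**Figure D1:**
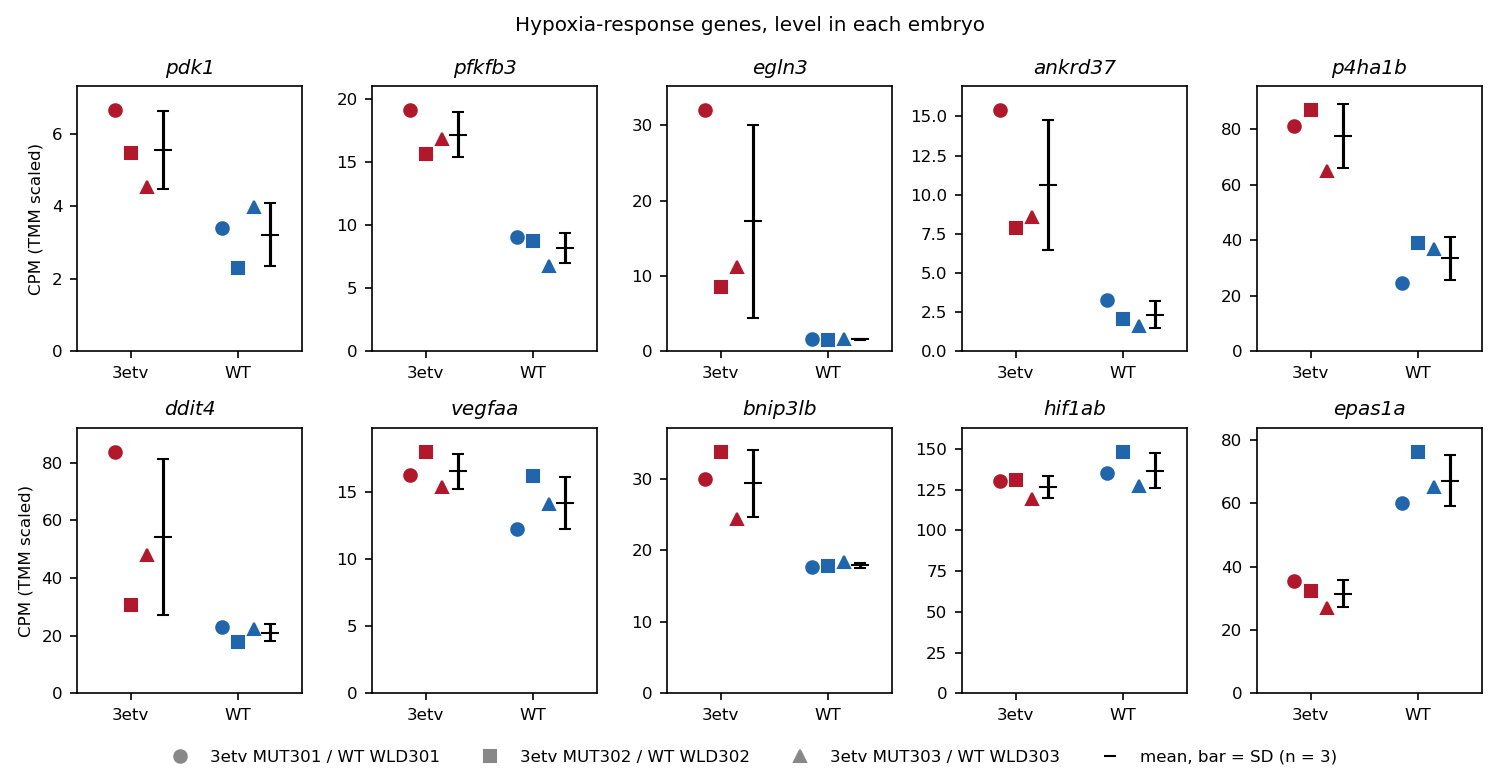
Level of each of the 10 hypoxia-response genes (vertical axis, CPM from 0) in the 3 3etv embryos (red, left) and the 3 WT embryos (blue, right), with each symbol an embryo and the black bars the mean and SD. In 8 panels the genotypes are separate, with 3etv above WT in all of these but epas1a, and embryo MUT301 stands far above the others for egln3, ankrd37 and ddit4.

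The gene of the hypoxia list with the highest fold change was egln3 (ENSDARG00000032553), which encodes a HIF prolyl hydroxylase. It was at 32.0, 8.55 and 11.2 CPM in 3etv embryos, against 1.66, 1.56 and 1.64 CPM in WT embryos. The WT embryos were nearly identical, whereas the highest 3etv embryo held several times the level of the lowest, and the genotypes did not overlap. The log2 fold change was 3.42 ± 0.434 (SE; adjusted p = 0.000195). The size of the difference depended on embryo MUT301: the fold was 10.7 with it and 6.14 without it, and the call stayed (adjusted p = 1.68e-05).

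The ankyrin repeat gene ankrd37 (ENSDARG00000056376), a HIF target in mammals, was at 15.4, 7.90 and 8.57 CPM in 3etv embryos, against 3.31, 2.06 and 1.64 CPM in WT embryos. Its lowest 3etv embryo lay above its highest WT embryo. The log2 fold change was 2.19 ± 0.293 (adjusted p = 0.000281). The gene ddit4 (ENSDARG00000037618) encodes an inhibitor of the growth regulator mTORC1, and in mammals it responds to glucocorticoids and other stresses as well as to low oxygen. Its level was 83.7, 30.8 and 48.1 CPM in 3etv embryos, against 23.1, 17.7 and 22.3 CPM in WT embryos. The groups did not overlap, and embryo MUT301 was again the highest of the 3etv embryos. The log2 fold change was 1.37 ± 0.263 (adjusted p = 0.00282), and it was 0.92 without that embryo (adjusted p = 0.00437).

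The gene p4ha1b (ENSDARG00000071082) encodes a subunit of the prolyl hydroxylase that matures collagen. Its level was 81.1, 86.8 and 64.8 CPM in 3etv embryos, against 24.6, 39.1 and 36.8 CPM in WT embryos, a log2 fold change of 1.21 ± 0.156 (adjusted p = 0.000227). All 3 3etv embryos were well above the WT embryos. Its relative p4ha1a, from a wider list described below, was not called (log2 fold change -0.12 ± 0.130, adjusted p = 0.534). The mitophagy receptor gene bnip3lb (ENSDARG00000028067) was at 29.9, 33.7 and 24.4 CPM in 3etv embryos, against 17.6, 17.8 and 18.3 CPM in WT embryos. Here too the WT embryos were close together and below every 3etv embryo, with a log2 fold change of 0.71 ± 0.121 (adjusted p = 0.00136). Its relatives on the wider list did not rise. The gene bnip3la was called lower (-0.38 ± 0.130, adjusted p = 0.0498), a call kept in 1 of the 6 fits lacking 1 embryo. The gene bnip3 was not called (-0.49 ± 0.328, adjusted p = 0.296). The vessel growth factor gene vegfaa (ENSDARG00000103542) did not pass the threshold. It was at 16.3, 18.0 and 15.4 CPM in 3etv embryos, against 12.3, 16.2 and 14.1 CPM in WT embryos, and the ranges overlapped (log2 fold change 0.22 ± 0.130, adjusted p = 0.228).

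Both regulators of sugar flux on the list were called higher. The product of pfkfb3 (ENSDARG00000001953) makes fructose 2,6-bisphosphate, an activator of phosphofructokinase. Its transcript was at 19.1, 15.6 and 16.8 CPM in 3etv embryos, against 9.02, 8.75 and 6.79 CPM in WT embryos, with no overlap and a log2 fold change of 1.07 ± 0.145 (adjusted p = 0.000298). Its relatives pfkfb1, pfkfb2a, pfkfb2b, pfkfb4a and pfkfb4b, from a wider list described below, were not called. Their log2 fold changes ran from -0.35 (pfkfb2b) to 0.23 (pfkfb4a). The kinase encoded by pdk1 (ENSDARG00000013128) inhibits pyruvate dehydrogenase and so holds pyruvate back from the mitochondrial cycle. Its transcript was low, at 6.66, 5.48 and 4.53 CPM in 3etv embryos, against 3.41, 2.29 and 3.98 CPM in WT embryos. The ranges were separate but close, the log2 fold change was 0.79 ± 0.231 (adjusted p = 0.0245), and the call was lost in 3 of the 6 fits lacking 1 embryo (without embryo MUT301, adjusted p = 0.0879; without embryo MUT302, 0.0556; without embryo WLD302, 0.0842). It was also lost with library totals only (0.0510).

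Neither listed gene of a HIF alpha subunit was called higher. The HIF alpha-like gene hif1al2, from a wider list described below, was called higher. On that list hif1aa (log2 fold change 0.13, adjusted p = 0.738), hif1al (0.01, 0.942) and epas1b (-0.35, 0.11) were not called. The mean level of hif1al was 281 CPM in 3etv embryos and 279 CPM in WT embryos. The transcript of epas1a (ENSDARG00000008697), which encodes a HIF-2 alpha subunit, fell: it was at 35.4, 32.3 and 26.8 CPM in 3etv embryos, against 60.1, 76.1 and 65.2 CPM in WT embryos. Every 3etv embryo was below every WT embryo, and the log2 fold change was -1.09 ± 0.119 (adjusted p = 7.51e-05). The call of epas1a stood in all 13 alternative fits. The transcript of hif1ab (ENSDARG00000034293), a HIF-1 alpha subunit, was at 130, 131 and 119 CPM in 3etv embryos, against 135, 148 and 127 CPM in WT embryos. These ranges overlapped, and the log2 fold change of -0.11 ± 0.0889 was not called (adjusted p = 0.381). Of the HIF partner genes on the wider list, arnt was called lower, at 6.26 ± 2.55 CPM in 3etv embryos and 11.6 ± 1.52 CPM in WT embryos. Its log2 fold change was -0.89 ± 0.247 (adjusted p = 0.0193), and the call was lost without embryo WLD302 (0.0523) and without embryo WLD303 (0.0681). The more abundant arnt2 was not called (0.16 ± 0.0954, adjusted p = 0.243). HIF activity is controlled largely at the level of protein stability, which these counts do not measure.

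**Figure D2:**
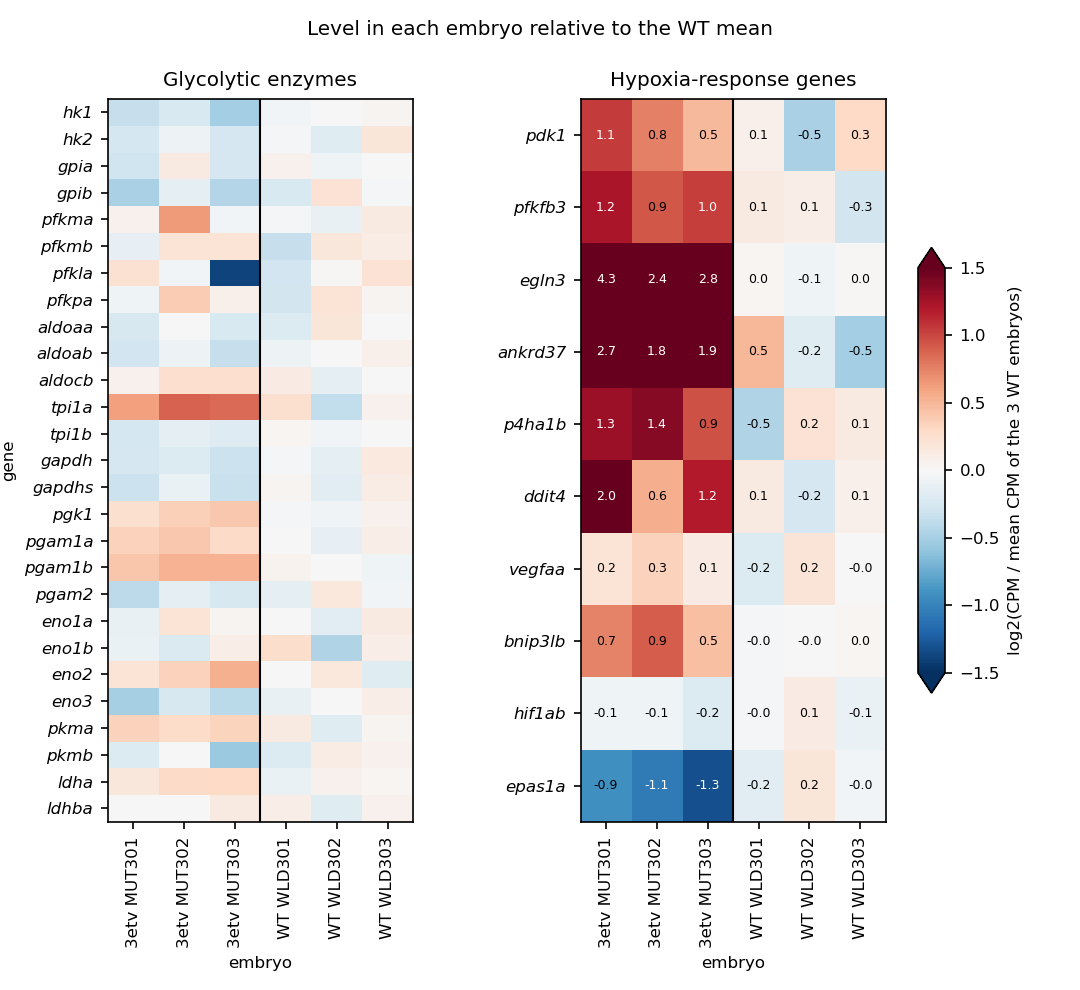
Level of the 27 tested enzymes (left) and the 10 hypoxia-response genes (right) in each embryo, as log2 of CPM over the mean CPM of the 3 WT embryos, with the colour scale ending at 1.5 in either direction and the values printed for the hypoxia genes. Columns run from the 3etv embryos to the WT embryos; egln3 reaches 4.31 in embryo MUT301, while most enzymes stay pale in every column.

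The 3etv embryos did not rank alike in the 2 lists. Embryo MUT301 had the highest level of 6 of the 10 hypoxia genes among the 3etv embryos, embryo MUT302 of 4 and embryo MUT303 of 0. Among the 27 enzymes the highest 3etv level was in embryo MUT301 for 2, in embryo MUT302 for 17 and in embryo MUT303 for 8. The median log2 ratio of the hypoxia genes to the WT mean was 1.14, 0.84 and 0.72 in the 3etv embryos, against 0.01, 0.04 and 0.00 in the WT embryos. Without the 2 factors hif1ab and epas1a, it was 1.25, 0.92 and 0.99 in the 3etv embryos. Of those 8 genes, embryo MUT301 had the highest 3etv level of 5, MUT302 of 3 and MUT303 of 0. For the enzymes the same medians were -0.11, 0.00 and -0.04 in the 3etv embryos, against -0.02, -0.04 and 0.07 in the WT embryos. Embryo MUT301 had the highest median of hypoxia genes and the lowest median of enzymes among the 3etv embryos. A relation between the lists was not tested.

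The enzymes lay on both sides of 0. Their log2 fold changes ran from -0.38 to 0.79, with 13 above 0 and 14 below. Summed over all 28 enzymes, the level was 2745, 3078 and 2805 CPM in 3etv embryos, against 3010, 3099 and 3292 CPM in WT embryos, and these ranges overlapped. The direction of calls depended on scaling: when libraries were scaled by their totals alone, 3 enzymes (tpi1a, pgk1 and pgam1b) were called higher and 8 lower, beside 8.65% and 16.7% of all genes. Those 8 were hk1 and eno3, joined by gpib, aldoab, tpi1b, gapdh, gapdhs and pgam2.

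**Figure D3:**
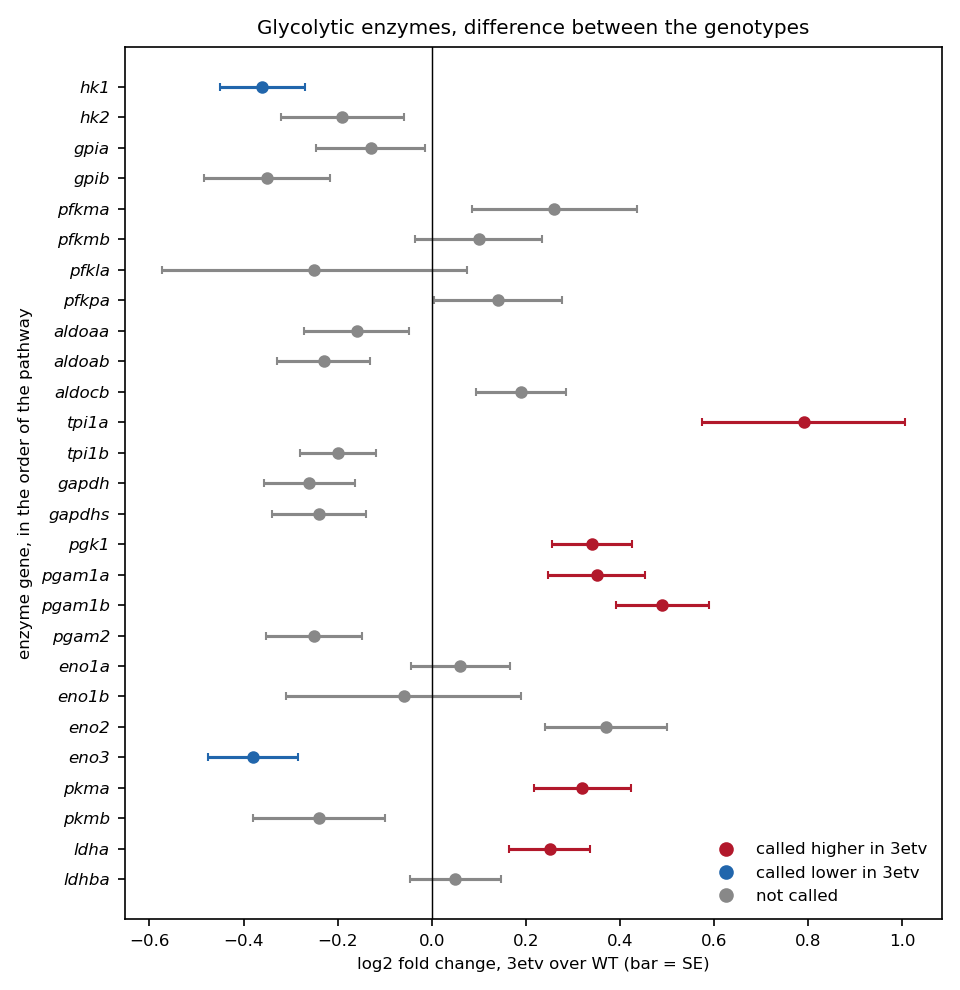
Log2 fold change of each tested enzyme gene, 3etv over WT (horizontal axis, bars give the SE), listed from the first step of glycolysis at the top to lactate dehydrogenase at the bottom. Red points were called higher in 3etv, blue points lower and grey points were not called; all values lie between -0.38 and 0.79.

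At the entry to the pathway, which spends ATP, the hexokinase gene hk1 (ENSDARG00000039452) fell. It was at 96.2, 105 and 86.3 CPM in 3etv embryos, against 119, 123 and 127 CPM in WT embryos, with no overlap (log2 fold change -0.36 ± 0.0908, adjusted p = 0.0121). The call was lost without embryo MUT303 (adjusted p = 0.0693). The other hexokinase gene, hk2, averaged 12.4 ± 0.884 CPM in 3etv embryos and 14.2 ± 1.75 CPM in WT embryos (SD, n = 3 each), and was not called (adjusted p = 0.306). Neither gpia nor gpib, the phosphoglucose isomerase genes, was called, with log2 fold changes of -0.13 and -0.35.

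Phosphofructokinase catalyses the committed step of glycolysis, and its 4 listed genes pfkma, pfkmb, pfkla and pfkpa were not called. Their log2 fold changes ran from -0.25 to 0.26. The lowest value, for pfkla, rested on embryo MUT303 and became 0.11 without it. The aldolase genes split fructose 1,6-bisphosphate, and the 3 that were tested were not called either. Among them aldoab was at 531, 614 and 510 CPM in 3etv embryos, against 614, 647 and 685 CPM in WT embryos, so that the highest 3etv embryo met the lowest WT embryo (log2 fold change -0.23 ± 0.0995, adjusted p = 0.102). The copies aldoaa and aldocb had log2 fold changes of -0.16 and 0.19. The untested aldoca had 2, 5 and 2 counts in 3etv embryos and 0, 2 and 1 counts in WT embryos, at or near the floor in both groups.

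Triosephosphate isomerase interconverts the products of aldolase, and its gene copies had fold changes of opposite sign. The minor copy tpi1a (ENSDARG00000025012) rose, with 3.99, 4.83 and 4.69 CPM in 3etv embryos, against 3.08, 2.02 and 2.73 CPM in WT embryos. The ranges were separate, and the log2 fold change of 0.79 ± 0.215 was the highest among the enzymes (adjusted p = 0.0178). The call was lost without embryo MUT302 (adjusted p = 0.0606) and without embryo WLD302 (0.0636). The other copy, tpi1b, supplied nearly all counts of this step and was at 115, 125 and 121 CPM in 3etv embryos, against 141, 134 and 139 CPM in WT embryos. Its ranges were also separate, with 3etv below, but it did not pass the threshold (log2 fold change -0.20 ± 0.0805, adjusted p = 0.0856).

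The next step reduces NAD, and its dehydrogenase genes gapdh and gapdhs were not called. The transcript of gapdh was at 418, 431 and 398 CPM in 3etv embryos, against 485, 452 and 552 CPM in WT embryos. All 3etv embryos were below all WT embryos, yet the log2 fold change of -0.26 ± 0.0971 did not pass the threshold (adjusted p = 0.0690). The enzyme that follows, phosphoglycerate kinase, is the first to make ATP, and its gene pgk1 (ENSDARG00000054191) rose. It was at 103, 113 and 116 CPM in 3etv embryos, against 86.6, 84.5 and 91.8 CPM in WT embryos. No overlap was seen, and the log2 fold change was 0.34 ± 0.0849 (adjusted p = 0.0124), with the call kept in all 13 alternative fits.

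Phosphoglycerate mutase and enolase carry the phosphate group to where pyruvate kinase can use it. The mutase gene pgam1b (ENSDARG00000014068) was at 24.4, 26.2 and 26.2 CPM in 3etv embryos, against 19.0, 18.4 and 17.4 CPM in WT embryos. Its groups were tight and separate (log2 fold change 0.49 ± 0.0996, adjusted p = 0.0039), and the call was kept in all 13 alternative fits. The copy pgam1a (ENSDARG00000005423) was at 24.8, 25.8 and 23.8 CPM in 3etv embryos, against 19.6, 17.9 and 20.8 CPM in WT embryos, also with no overlap (log2 fold change 0.35 ± 0.103, adjusted p = 0.0245). That call was lost without embryo MUT301 (adjusted p = 0.0508), without embryo MUT302 (0.0836) and without embryo WLD302 (0.0738), and with library totals only (0.0918). The copy named for the mammalian muscle form, pgam2, lay on the other side of 0, at 67.8, 80.9 and 75.1 CPM in 3etv embryos, against 80.7, 99.7 and 86.5 CPM in WT embryos, with slight overlap and no call (log2 fold change -0.25 ± 0.102, adjusted p = 0.0824).

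The enolase gene eno3 (ENSDARG00000039007), named for the mammalian muscle form, fell: it was at 154, 185 and 165 CPM in 3etv embryos, against 202, 218 and 234 CPM in WT embryos. The groups did not overlap (log2 fold change -0.38 ± 0.0958, adjusted p = 0.0129). Its call was lost without embryo MUT301 (adjusted p = 0.0613), without embryo MUT303 (0.0516) and without embryo WLD303 (0.0572). The gene eno2, named for the neuronal form, was at 16.8, 18.3 and 20.8 CPM in 3etv embryos, against 14.5, 16.1 and 12.7 CPM in WT embryos. These ranges were separate with 3etv above, and the log2 fold change of 0.37 ± 0.129 narrowly missed the threshold (adjusted p = 0.0529). The remaining copies eno1a and eno1b were not called, with log2 fold changes of 0.06 and -0.06, and the sign of both changed under some alternatives.

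**Figure D4:**
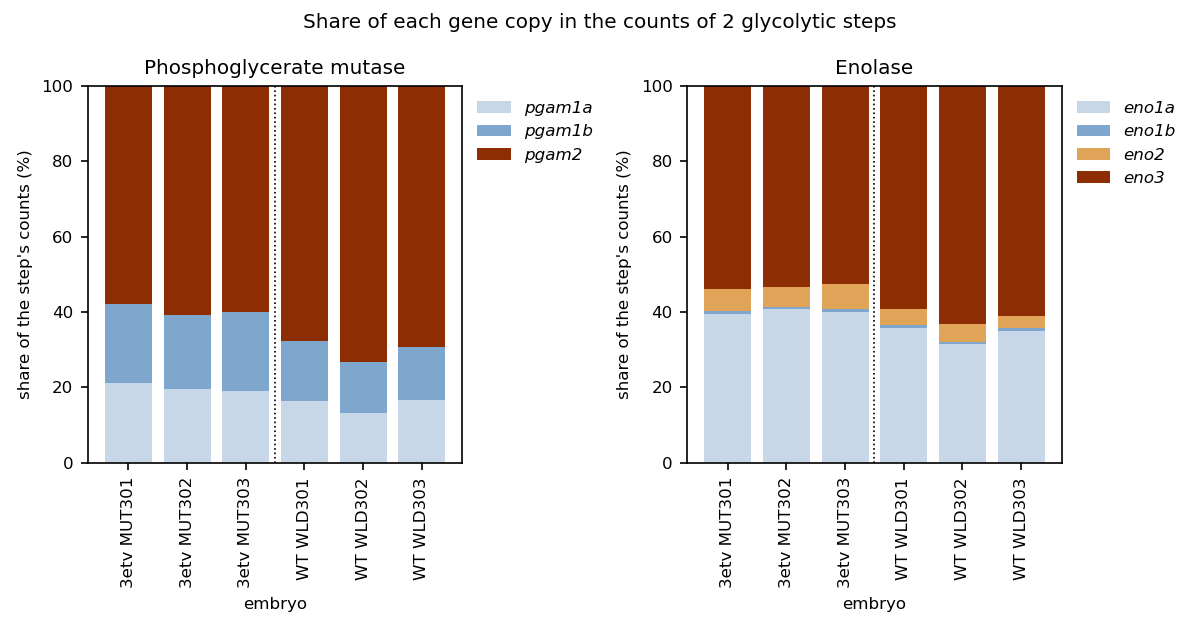
Share of each gene copy in the counts of phosphoglycerate mutase (left) and enolase (right), in percent, for each 3etv embryo and then each WT embryo. The brown segments, pgam2 and eno3, are shorter in all 3 3etv embryos, at 57.9% to 60.9% for pgam2 and 52.6% to 53.9% for eno3, than in all 3 WT embryos, at 67.7% to 73.3% and 59.2% to 63.3%.

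Of the 10 steps with several copies, 6 had overlapping shares for every copy, and 10 of the 27 shares did not overlap (42.9% of all genes tested did not overlap in level). Shares of copies of the same step depend on each other. The mutase and enolase steps, chosen for showing after the shares were seen, held 6 of those 10, with eno1b overlapping, while the totals of both steps overlapped. The other shares without overlap were those of aldocb, tpi1a, tpi1b and aldoca, the last near the floor. Of the counts for phosphoglycerate mutase, pgam2 held 57.9%, 60.9% and 60.0% in 3etv embryos, against 67.7%, 73.3% and 69.4% in WT embryos. Of the enolase counts, eno3 held 53.9%, 53.4% and 52.6% in 3etv embryos, against 59.2%, 63.3% and 61.0% in WT embryos. Shares of counts are not corrected for transcript length. Summed over its copies, phosphoglycerate mutase was at 125 ± 7.94 CPM in 3etv embryos and 127 ± 8.58 CPM in WT embryos (SD, n = 3 each). Enolase summed to 315 ± 29.9 CPM in 3etv embryos and 357 ± 23.7 CPM in WT embryos, and its ranges overlapped.

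Markers of muscle and of neurons stand beside these values. The level summed over the skeletal muscle markers was 16460, 19880 and 17380 CPM in 3etv embryos, against 19830, 23230 and 22990 CPM in WT embryos. These ranges overlapped. The gene atp2a1, called lower, averaged 3660 CPM in 3etv embryos and 5610 CPM in WT embryos. The gene acta1b, called higher, averaged 1690 CPM in 3etv embryos and 1310 CPM in WT embryos. The acta1b call was kept in 3 of the 6 fits lacking 1 embryo. Of the 15 table entries of these markers, 5 were called lower and 2 higher (13.5% and 12.6% of all genes tested), and none was at 0. Of their log2 fold changes, 3 were above 0 and 12 below, with the abundant mylpfa at -0.01. The gene myhz1.1 had 2 entries and was counted on both sides. Its main entry, called lower, averaged 1940 CPM in 3etv embryos and 2480 CPM in WT embryos, a call kept in 1 of the 6 fits lacking 1 embryo. Its minor entry, called higher, averaged 9.92 CPM in 3etv embryos and 5.87 CPM in WT embryos. The summed neuron markers were at 1156, 1230 and 1338 CPM in 3etv embryos, against 1080, 1131 and 976.5 CPM in WT embryos. These summed ranges did not overlap. Of these 10 genes, 3 were called higher and 0 lower (12.6% and 13.5% of all genes tested), and none was at 0. All 10 log2 fold changes were above 0, from 0.17 to 0.51. CPM ranges did not overlap in 6 of the 10, against 42.9% of all genes tested. The ratio of mean summed levels, 3etv over WT, was 0.813 for muscle and 1.17 for neurons, beside fold changes of 0.771 for eno3, 0.838 for pgam2 and 1.29 for eno2. The genes pfkma and pfkmb, also named for a mammalian muscle form, had fold changes of 1.19 and 1.07. Among eno3, pgam2, eno2, pfkma and pfkmb, only eno3 was called. The log2 fold change of pfkmb was -0.04 without embryo WLD301. Of the 27 tested enzymes, 13 had log2 fold changes above 0 and 14 below. The part of these markers in the enzyme results was not tested. In whole embryos, fewer cells of a type and less RNA per cell cannot be told apart.

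At the end of the pathway, pyruvate kinase makes pyruvate and ATP. The gene pkma (ENSDARG00000099730) was at 33.5, 31.6 and 33.1 CPM in 3etv embryos, against 28.7, 23.2 and 27.0 CPM in WT embryos. The ranges were separate (log2 fold change 0.32 ± 0.103, adjusted p = 0.0378), but the call was lost in 5 of the 6 fits lacking 1 embryo, all but the one without WLD301, with adjusted p-values from 0.0265 to 0.119. It was lost with library totals only as well (0.126). The other copy, pkmb, was at 22.2, 25.4 and 17.2 CPM in 3etv embryos, against 22.1, 27.5 and 26.8 CPM in WT embryos, overlapping and not called (log2 fold change -0.24 ± 0.140, adjusted p = 0.230).

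Lactate dehydrogenase regenerates the cofactor that glycolysis needs when oxygen is short. The gene ldha (ENSDARG00000101251), whose mammalian counterpart is a HIF target, was at 122, 133 and 134 CPM in 3etv embryos, against 102, 114 and 111 CPM in WT embryos. Groups were separate, with a log2 fold change of 0.25 ± 0.0853 close to the threshold (adjusted p = 0.0436). Its call was lost in 4 of the 6 fits lacking 1 embryo (MUT302, MUT303, WLD301 or WLD303), with adjusted p-values from 0.0420 to 0.125 over the 6. It was lost too with library totals only (0.149), with no filter on low counts (0.0552) and with the replicate number as a block (0.0543). The gene ldhba had overlapping ranges and was not called (log2 fold change 0.05 ± 0.0974, adjusted p = 0.762).

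Across the steps, the summed level of the listed copies separated the genotypes in 4 of 11 steps, a share no greater than the 42.9% of all genes tested whose ranges did not overlap. For hexokinase, triosephosphate isomerase and the GAPDH step every 3etv embryo lay below every WT embryo, with ratios of means of 0.789, 0.887 and 0.838. For phosphoglycerate kinase, a single gene, every 3etv embryo lay above, with a ratio of 1.26. In the other 7 steps the ranges overlapped, with ratios from 0.861 for phosphoglucose isomerase to 1.09 for phosphofructokinase. These sums cover the listed copies only and weigh each copy by its counts.

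A wider list of 41 genes of sugar and pyruvate metabolism gave 34 tested entries, of which 5 were called higher and 7 lower (26.0% of all genes tested were called), with a median log2 fold change of -0.04. The monocarboxylate transporter gene slc16a1a, whose product moves lactate and pyruvate across membranes, rose to 4.77 ± 0.655 CPM in 3etv embryos, against 1.15 ± 0.0785 CPM in WT embryos (SD, n = 3 each; log2 fold change 2.05 ± 0.227, adjusted p = 8.02e-05). Also called higher were the phosphofructokinase gene pfkpb (0.98 ± 0.180) and the pyruvate dehydrogenase kinase genes pdk2a (0.92 ± 0.161) and pdk4 (0.52 ± 0.148), as log2 fold change with SE. The pdk4 call was lost in 4 of the 6 fits lacking 1 embryo (MUT301, MUT302, WLD301 or WLD302) and with library totals only (adjusted p = 0.0646).

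Glucose synthesis runs against glycolysis and uses some enzymes of its own, among them the carboxykinases, pyruvate carboxylase and fructose bisphosphatase. The mitochondrial phosphoenolpyruvate carboxykinase gene pck2 was at 33.5 ± 2.09 CPM in 3etv embryos and 50.6 ± 3.78 CPM in WT embryos (log2 fold change -0.60 ± 0.0942, adjusted p = 0.00083). Its cytosolic relative pck1 was at 0.767 ± 0.270 CPM in 3etv embryos and 2.36 ± 0.745 CPM in WT embryos (log2 fold change -1.59 ± 0.349, adjusted p = 0.00575). The pyruvate carboxylase genes pcxb (-0.98 ± 0.185) and pcxa (-0.36 ± 0.0991) were lower by log2 fold change. The pcxa call was lost without embryo MUT303 (adjusted p = 0.0981) and without embryo WLD303 (0.0773). Of the fructose bisphosphatase genes, fbp1b was called lower (-1.11 ± 0.190), fbp1a was called higher (0.44 ± 0.108) and fbp2 was not called (0.03 ± 0.230, adjusted p = 0.939). The hexokinase-like gene hkdc1 (-1.29 ± 0.254) and the liver and red cell type pyruvate kinase gene pklr (7.45 ± 2.70 CPM in 3etv embryos and 14.9 ± 2.67 CPM in WT embryos) completed the lower calls. Beside these, all 5 markers of the yolk syncytial layer, a tissue that feeds the embryo, were called lower (13.5% of all genes tested), and their summed level was 1236, 929.4 and 1080 CPM in 3etv embryos, against 2162, 1754 and 1520 CPM in WT embryos. None of the 5 was at 0. The call of mttp among them was lost without embryo MUT302 (adjusted p = 0.0647) and without embryo WLD303 (0.0544). Summed red blood cell markers had a ratio of means, 3etv over WT, of 1.14. The ratio was 0.713 for hatching gland, 0.861 for endothelium, 0.986 for epidermis and 1.08 for lens. Ranges overlapped in each of these tissues. The part of the markers in these results was not tested.

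**Figure D5:**
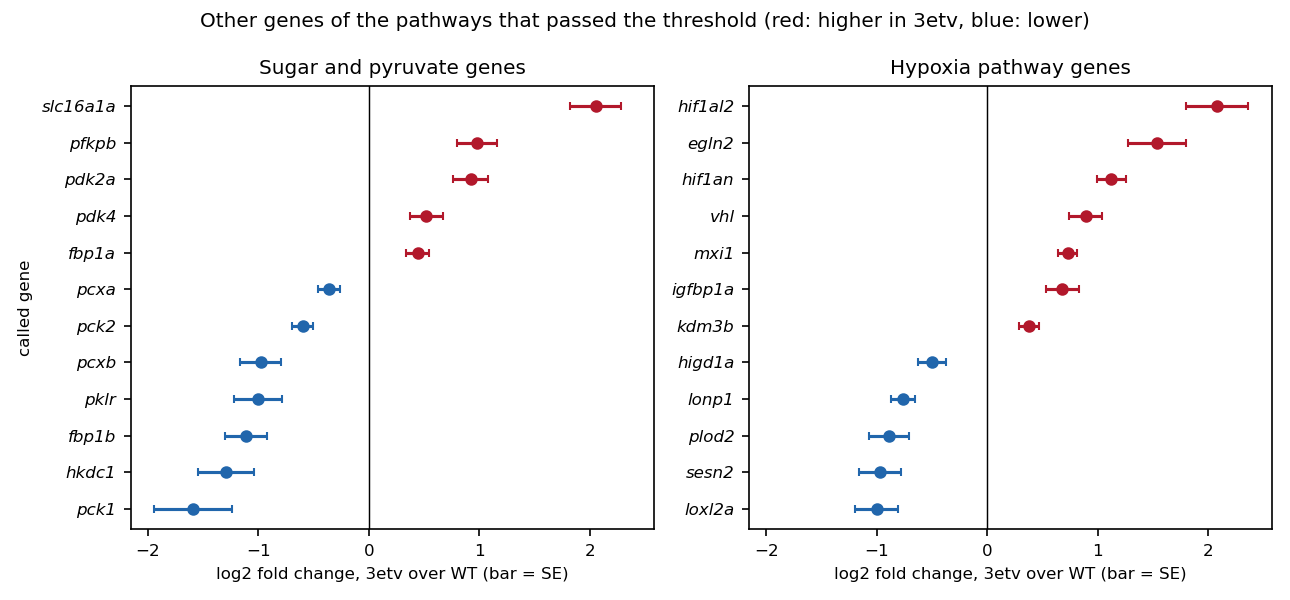
Log2 fold change, 3etv over WT (horizontal axis, bars give the SE), of called genes from the wider lists of sugar and pyruvate metabolism (left, all 12 called) and of the hypoxia pathway (right, the 12 with the smallest p of 19 called). Red points are higher and blue points lower in 3etv; slc16a1a at 2.05 and hif1al2 at 2.08 lie farthest to the right.

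A wider list of 46 hypoxia pathway genes gave 40 tested entries, 11 called higher and 8 lower (12.6% and 13.5% of all genes tested), with a median log2 fold change of 0.03. The asparagine hydroxylase gene hif1an, whose product restrains HIF in mammals, was at 59.8, 88.5 and 65.7 CPM in 3etv embryos, against 31.5, 31.8 and 35.1 CPM in WT embryos (log2 fold change 1.12 ± 0.131, adjusted p = 0.000116). The prolyl hydroxylase gene egln2 was at 8.49 ± 2.82 CPM in 3etv embryos and 2.90 ± 0.864 CPM in WT embryos (log2 fold change 1.54 ± 0.262, adjusted p = 0.00137). The gene of the ubiquitin ligase subunit vhl was at 8.77 ± 0.0834 CPM in 3etv embryos and 4.72 ± 0.318 CPM in WT embryos (log2 fold change 0.89 ± 0.150, adjusted p = 0.00122).

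The HIF alpha-like gene hif1al2 rose to 4.66 ± 1.54 CPM in 3etv embryos, against 1.11 ± 0.191 CPM in WT embryos (log2 fold change 2.08 ± 0.281, adjusted p = 0.000305). Further genes called higher were mxi1, an antagonist of MYC (0.73 ± 0.0862), igfbp1a, which encodes a binding protein of insulin-like growth factors (0.68 ± 0.149), and the histone demethylase gene kdm3b (0.38 ± 0.0901), as log2 fold change with SE. Other genes known as hypoxia-induced in mammals were called lower. Among these were the collagen-modifying genes plod2 (-0.89 ± 0.181) and loxl2a (5.50 ± 0.732 CPM in 3etv embryos and 11.0 ± 2.75 CPM in WT embryos), the mitochondrial protease gene lonp1 (-0.76 ± 0.108) and the mitochondrial gene higd1a (-0.50 ± 0.123). The higd1a call was lost without embryo MUT302 (adjusted p = 0.0517) and without embryo WLD303 (0.0552). The stress-response gene sesn2 was also lower (-0.97 ± 0.189). The calls on this wider list numbered 13 to 19 in the fits lacking 1 embryo.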

How the data were processed

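The authors deposited raw counts of reads per Ensembl gene, with symbols; the submitters' processing notes name STAR, HTSeq and the build GRCz11, while versions, annotation release and strand setting are not given in the sources used here. Counts of near-identical copies and overlapping genes are therefore uncertain. Per the labels' protocols, libraries were poly-A selected and strand-specific. The table's header was split where a space stands for a tab, and all 6 columns matched sample titles. Its summary lines that name no gene stayed out. Reads in no gene made up 55.3% to 55.4% in 3etv and 53.6% to 54.3% in WT, and reads with several alignments 5.14% to 5.32% in 3etv and 6.10% to 6.50% in WT. These shares separate the genotypes, and their part in the results was not tested.

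In R 4.3.3, genes were filtered by filterByExpr, scaled by TMM and compared with the quasi-likelihood test of edgeR 4.0.16 on genotype alone, with Benjamini-Hochberg adjustment over 19889 genes. SE is the log2 fold change over the square root of F. No pair of libraries within a genotype agreed within sampling noise. The chi-square per degree of freedom ran from 6.32 to 9.56 for the 3etv pairs and from 20.1 to 49.0 for the WT pairs. P-values set the genotype difference against spread between embryos, whose clutch and parents are not given. Floors cover counting error only. Alternatives were other scalings and filters, DESeq2 1.42.0, limma-voom (limma 3.58.1), the replicate number as a block, and each embryo left out. Members, lists and tests were chosen with earlier results of these data known. Every member is given. Of the 2 wider lists, called genes are named, at most 12 each by smallest p. Named besides these are fbp2, pfklb, slc16a1b, p4ha1a, bnip3la, bnip3, hif1aa, hif1al, epas1b, arnt, arnt2 and the uncalled pfkfb genes, as relatives or partners of other named genes. The Pea3 genes are named as a check of the labels. Of the markers, atp2a1, acta1b, myhz1.1, mylpfa, mttp and ctslb are named as single cases. Promoter motifs were not analysed here.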

Additional observations from a re-analysis of the deposited data

How the results depend on the processing

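The counts of hypoxia-response genes called held closely: 6 or 7 higher and 1 lower in all 13 alternatives, with a median log2 fold change from 0.81 to 1.01 over the fits lacking 1 embryo. The enzymes were less steady. With library totals only, 3 were called higher and 8 lower, against 6 and 2 with TMM, and their median log2 fold change was -0.14 rather than -0.06; that scaling moved the median of all genes to -0.08, against -0.01. Leaving out each embryo gave 2 to 5 enzymes higher (2 without embryo MUT302), 0 to 4 lower (0 without embryo MUT303) and a median from -0.06 to 0.00. Over the whole table these fits called 1643 to 2266 genes higher, against 2502, and 1787 to 2572 lower, against 2676. The wider lists gave 11 to 12 sugar and pyruvate genes and 13 to 19 hypoxia genes there. Of the 16 called members, 9 kept direction and call in every alternative. Over 481 alternative values of the 37 tested members, 428 kept direction and side of the threshold, 27 lost a call, 17 gained one and 9 changed sign. The sign changes were all in uncalled enzymes: pfkmb (-0.04 without embryo WLD301), pfkla (0.11 without embryo MUT303), eno1a (-0.02 with library totals only, without embryo MUT302 and without embryo WLD302), eno1b (0.02 without embryo MUT302 and 0.08 without embryo WLD301) and ldhba (-0.03 with library totals only and -0.04 without embryo WLD302), as log2 fold changes. Over the fits lacking 1 embryo these genes reached as far as 0.22 (pfkmb), -0.56 (pfkla), 0.14 (eno1a), -0.25 (eno1b) and 0.10 (ldhba). The cause was not tested. For the 24 genes of the wider lists named by smallest p, 9 of 311 values lost the call (of pdk4, pcxa and higd1a) and the others kept direction and call.

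The titles number embryos of both genotypes alike, but these are different embryos, and embryos with the same number gave correlations of their deviations from the genotype mean of -0.0901, 0.147 and -0.153 across genes, so the numbers were not taken to pair them. With the replicate block, 5 enzymes were called higher and 3 lower, 7 hypoxia genes higher and 1 lower. With the block, ldha lost its call (adjusted p = 0.0543) and gpib gained one (0.0366). Depth limits aldoca, near the floor in both genotypes, and pck1, which fell under the minimum mean of 50 counts and has no value there.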
